A study of Xenopus laevis with 4 samples.

Results

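Histones package DNA, and vertebrate embryos draw on 2 kinds of histone genes. Replication-type genes supply the bulk H2A, H2B, H3 and H4 that coat newly copied DNA. Their transcripts are made mainly in S phase, and most end in a stem-loop bound by SLBP in place of a poly(A) tail. Variant genes make proteins such as H2A.X, H2A.Z, H3.3 and H1.X, whose transcripts mostly carry a poly(A) tail and are made throughout the cell cycle. H2A.X is an exception, since in mammals its gene makes both a stem-loop and a polyadenylated transcript. The Xenopus embryo starts with large maternal stores of both and divides rapidly before gastrulation. The labelling used here starts from the poly(A) tail of a transcript in the kit's usual form, so the signal of a stem-loop transcript need not report its whole amount.

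Replication-type histone genes were followed here against variant histone genes, 10 genes of the 7531 that have a probe set of their own on the array. They were named by symbol and chosen by their signal differences between injections and between experiments on these same arrays. The replication-type genes were h4c4.L, h2ac7.L, h2ac14.L, h2ac17.L, h2bc11.S and h3c13.S. The variant genes were h2ax.S, h2az1.L, h3-3b.L and h1-10.S. The class of each gene rests on its name, since no sequence was compared. The 6 replication-type genes had 7 probe sets and the 4 variant genes had 4, together 11 of 15611 on the array. All 11 reached the mean signal of 100 over the 4 arrays that a probe set needed to enter the tests, h2ac14.L only through its xSGK1 arrays, since its control mean was 97.3. Because both differences were treated as used in the choice of the genes, their own values are a description and support no claim. Counts of members past a test's threshold are given only beside the share of all probe sets, and nothing is read from them.

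The samples were whole Xenopus laevis embryos at stage 12, in gastrulation, injected radially at the 4-cell stage. The xSGK1 group received 2 morpholinos against the kinase SGK1, 40 ng of each, and the control group 80 ng of a control morpholino. A morpholino is an antisense oligonucleotide that blocks the translation or splicing of a transcript, so it need not lower the RNA of its target. The probe set of sgk1.L had a log2 change of 0.31, which checks neither the knockdown nor the labels. Both injections were done in each of 2 independent experiments, with 1 array for every injection and experiment (n = 2 in either group), and so few arrays limit the precision. The labels name no strain or genotype, and uninjected embryos were not analysed here.

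Signals are linear array intensities scaled to the same trimmed mean of 500. Signals of different probe sets depend on the probes and were not compared with each other. Log2 changes were computed on signal + 16 as xSGK1 minus control morpholino, a scale that understates changes of dim probe sets. The ± beside a log2 change is its standard error in limma when the experiment enters as a block (n = 2 pairs). This error is moved towards the spread of all probe sets of like signal, so it is not the spread between the pairs of that gene alone. Across the 4 arrays the median signal lay between 161.4 and 174.1, and 9046 to 9207 probe sets on each had at least 100. For beta-actin the ratio of 3' to 5' signals, which reflects RNA and labelling quality, was 3.38 and 2.06 in the xSGK1 arrays of experiments 1 and 2, against 3.11 and 2.24 in the control arrays, so it differed by experiment more than by injection. The same ratio for GAPDH was far higher on every array, at 17.7 and 15.6 in the xSGK1 arrays, against 16.6 and 16.4 in the control arrays. The labelled stage was checked with markers named by gene. A marker counted when at least 1 of its probe sets had a mean signal of at least 100. All 4 mesodermal, all 3 endodermal, all 4 ectodermal and all 3 neural or organizer markers with a probe set did. Of the markers of later tissues 0 of 5 did. The organizer gene gsc counted only through gsc.S, with signals of 82.6 to 161.

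Among the chosen genes, several replication-type histone signals were higher in xSGK1 embryos, while variant histone signals were similar or lower. Outside this set h2ax.lS, by its name an H2A.X variant, was higher (log2 change 1.03). The H2A gene h2ac14.L, the brighter probe set of the H2A gene h2ac7.L and the H4 gene h4c4.L had about 2- to 3-fold higher signals. The dimmer h2ac7.L probe set had a log2 change of 0.52, and its groups overlapped. The H2A gene h2ac17.L and the H2B gene h2bc11.S differed less, and the H3 gene h3c13.S did not move with injection beyond its standard error. Of the variants, the H2A.X gene h2ax.S was lower in both experiments, and the H2A.Z gene h2az1.L and the H3.3 gene h3-3b.L had signals 0.992 to 1.09 times the paired control. In whole embryos a change in the share of cells that express a gene and a change in RNA per cell cannot be told apart.

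**Figure D1:**
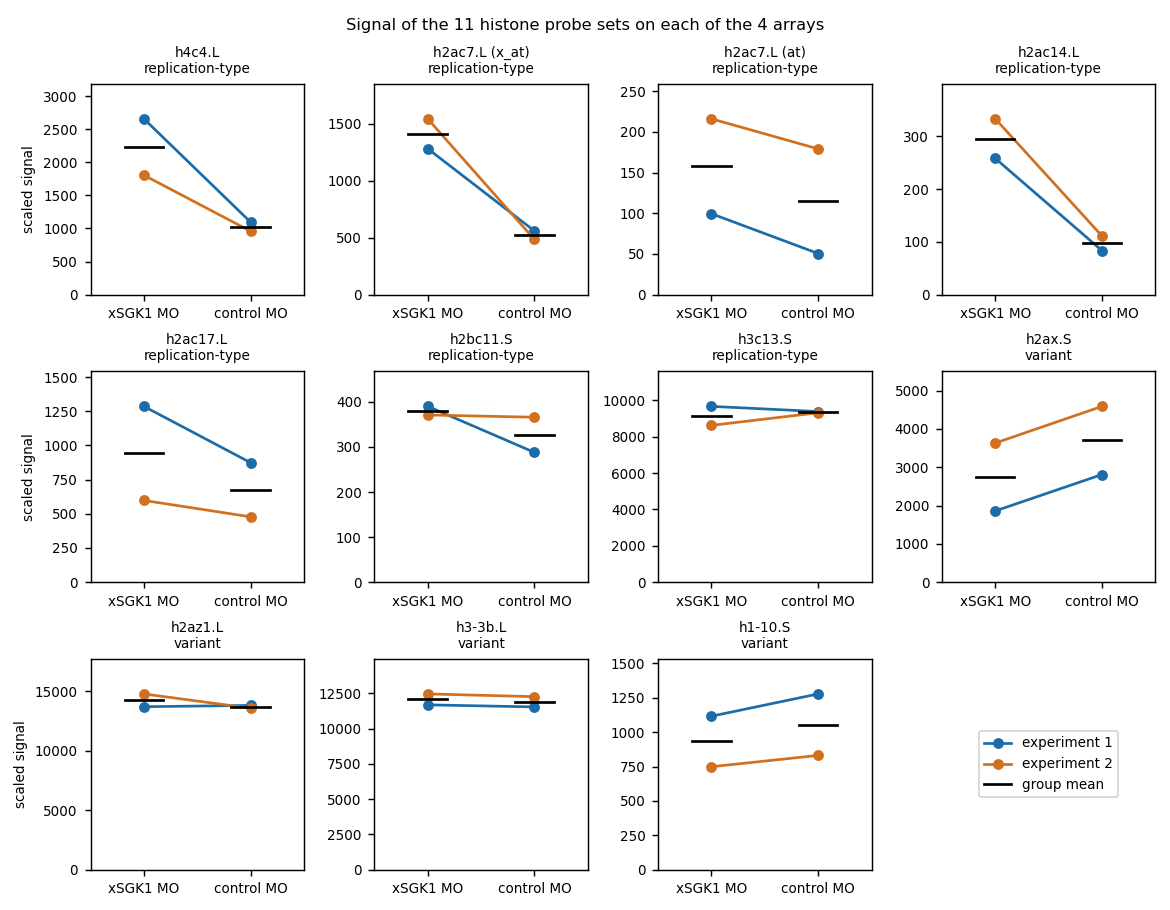
Scaled signal (linear axis from 0, a separate scale in each panel) of the 11 histone probe sets in the xSGK1 and control morpholino arrays. Points are single arrays, lines join the 2 arrays of an experiment and black bars are group means; the xSGK1 points of h4c4.L, h2ac7.L (x_at) and h2ac14.L lie above both controls, and those of h2ax.S lie below the control of the same experiment.

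Histone H4 forms the tetramer with H3 at the centre of the nucleosome. The h4c4.L probe set gave 2658 and 1806 in the xSGK1 arrays of experiments 1 and 2, against 1095 and 958 in the control arrays. Both xSGK1 arrays were above both controls, 2.43-fold and 1.89-fold within the experiments (log2 change 1.09 ± 0.14 SE).

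The 3 H2A genes spread over a wide range. The signal of h2ac14.L was 258 and 333 in the xSGK1 arrays, against 83.3 and 111 in the control arrays. The 2 experiments gave nearly the same ratio, 3.10-fold and 2.99-fold (log2 change 1.46 ± 0.18 SE). The brighter h2ac7.L probe set, whose suffix x_at marks probes that can match other sequences, gave 1281 and 1543 in xSGK1 embryos, against 559 and 484 in controls. Again no xSGK1 array overlapped a control (log2 change 1.41 ± 0.17 SE, 2.29-fold and 3.19-fold within the experiments). A second and dimmer h2ac7.L probe set gave 99.4 and 216 with the xSGK1 morpholinos, against 50.5 and 179 with the control. Its groups overlapped, because experiment 2 was higher than experiment 1 in both groups, and its log2 change was 0.52 ± 0.22 SE. The 2 probe sets of this gene therefore gave the same direction and different sizes. For h2ac17.L the xSGK1 arrays read 1286 and 598, against 874 and 478 in the controls. The xSGK1 array was higher within each experiment, 1.47-fold and 1.25-fold, but the groups overlapped, since experiment 1 was the higher one throughout (log2 change 0.43 ± 0.15 SE). With an array left out, an experiment lacks its pair, so the unpaired difference also holds part of the difference between experiments. For this gene it was -0.11 or 0.97 without the xSGK1 array of experiment 1 or 2. It was 0.86 or 0.01 without the control array of experiment 1 or 2. For the dimmer h2ac7.L probe set, in the same order, it was 1.02, 0.02, -0.26 and 1.30.

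H2B pairs with H2A in the nucleosome. Its gene h2bc11.S measured 390.1 and 371 in xSGK1 embryos, against 288 and 366 in controls. The xSGK1 arrays lay above both controls, though in experiment 2 by only 1.02-fold, and the log2 change of 0.22 ± 0.18 SE was near its standard error. The H3 gene h3c13.S stood at 9675 and 8629 in the xSGK1 arrays, against 9390 and 9322 in the control arrays. Its xSGK1 arrays lay on either side of the controls (log2 change -0.03 ± 0.08 SE). With cyclic loess normalization this value was 0.07, on the other side of 0.

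Among the variants, H2A.X is the form of H2A that is phosphorylated at DNA breaks. Its gene h2ax.S read 1858 and 3630 in the xSGK1 arrays, against 2809 and 4587 in the control arrays. It was lower with the xSGK1 morpholinos in both experiments, 0.662 and 0.791 of the paired control (log2 change -0.46 ± 0.11 SE), while the groups overlapped because experiment 2 was higher in both. Without the xSGK1 array of experiment 1 the unpaired difference was 0.02, and without that of experiment 2 it was -0.94. Without the control array of experiment 1 or 2 it was -0.82 or -0.11. Each of these values also holds part of the difference between experiments.

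H2A.Z marks promoters and other regulatory DNA. For h2az1.L the signals were 13717 and 14793 in xSGK1 embryos, against 13826 and 13593 in controls, with a log2 change of 0.06 ± 0.07 SE. H3.3 replaces H3 outside replication. Its gene h3-3b.L gave 11678 and 12452 in the xSGK1 arrays, against 11531 and 12258 in the controls (log2 change 0.02 ± 0.07 SE). For both genes the injection difference was no larger than its standard error. The linker histone H1.X binds DNA between nucleosomes. The signal of its gene h1-10.S was 1116 and 749 in xSGK1 embryos, against 1278 and 831 in controls, slightly lower within each experiment and overlapping between groups (log2 change -0.17 ± 0.13 SE). Its unpaired difference was -0.45 or 0.11 without the xSGK1 array of experiment 1 or 2, and 0.14 or -0.48 without the control array of experiment 1 or 2. Those values too hold part of the difference between experiments.

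The median log2 change was 0.52 over the 7 replication-type probe sets and -0.07 over the 4 variant probe sets, beside 0.04 over all 9251 probe sets tested. Within experiments the replication-type median was 0.80 and 0.31 and the variant median -0.10 and -0.06, so that the gap between them was 0.90 in experiment 1 and 0.38 in experiment 2. With an array left out these medians changed, since the unpaired differences then also hold part of the difference between experiments. Leaving out the control array of experiment 1 or 2 gave a replication-type median of 0.86 or 0.99, and leaving out the xSGK1 array of experiment 1 or 2 gave 0.81 or 0.97. In the same order the variant median was 0.02, -0.03, 0.04 and -0.01. Replication-type signals were higher in xSGK1 embryos in both experiments for 6 of 7 probe sets, as for 40.8% of all probe sets tested. In 4 of the 7 both xSGK1 arrays lay above both controls, as they did for 16.3% of all. Of the 4 variants, 2 were lower in both experiments, as 31.9% of all probe sets were, and 0 had both xSGK1 arrays below both controls, which 13.8% of all had. With the experiment as a block in limma, 3 replication-type probe sets and 0 variants had an adjusted p under 0.05 for injection. This fit called 8.0% of all probe sets, with 4.09% of all higher and 3.91% lower. Among the 3, h2ac14.L entered the test only through its xSGK1 arrays, since its control mean of 97.3 was under the filter. The fit without the block called 0% of all probe sets, and 3.61% had an unadjusted p under 0.05 there. Nothing is read from these member counts, since the contrast was treated as used in the choice of the genes.

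**Figure D2:**
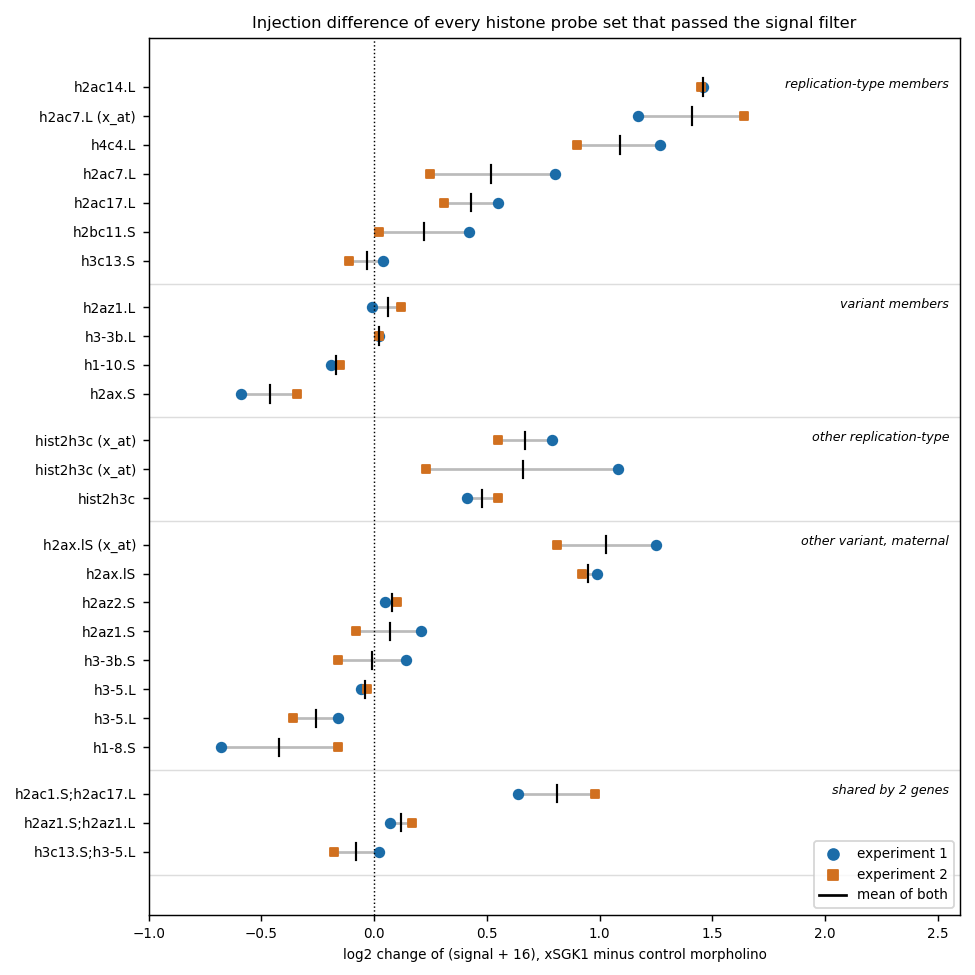
Log2 change of signal + 16, xSGK1 minus control morpholino, for each histone probe set that passed the signal filter, by experiment (circle, experiment 1; square, experiment 2) and as the mean of both (bar). Replication-type members run from -0.03 to 1.46 and variant members from -0.46 to 0.06, and among the other variants only the h2ax.lS probe sets lie near 1.

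The size of a change depended on the signal range in which a probe set lies. The 99 probe sets with a mean signal of 8000 or more had a median absolute log2 change of 0.08, and 2.02% were called with the block. The members h2az1.L, h3-3b.L and h3c13.S are in that range. Between 2000 and 8000, where h2ax.S lies, the median absolute change was 0.16. Between 500 and 2000, the range of h4c4.L, h2ac17.L, h1-10.S and the brighter h2ac7.L probe set, it was 0.24. Between 100 and 500, the range of h2ac14.L, h2bc11.S and the dimmer h2ac7.L probe set, it was 0.30. The gene h3c13.S, which did not differ, was thus also the one replication-type member among the brightest probe sets, together with 2 of the variants. Its class as replication-type rests on its name. Another probe set is shared by h3c13.S and h3-5.L, a gene listed here among the variants, and h3c13.S had no named histone gene near it. The part of signal range in the difference between the classes was not tested.

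**Figure D3:**
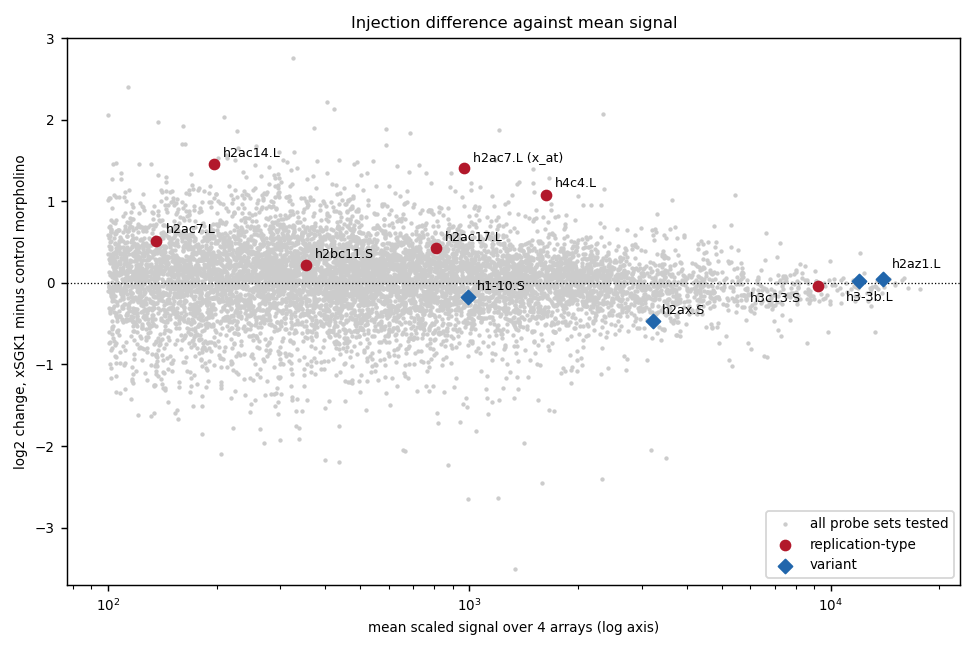
Log2 change, xSGK1 minus control morpholino, against the mean scaled signal of the 4 arrays (log axis) for the 9251 probe sets tested (grey), replication-type members (circles) and variant members (diamonds). The spread of all probe sets narrows towards high signals, where h3c13.S, h3-3b.L and h2az1.L lie.

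The same genes were set out by experiment. The dim h2ac7.L probe set was 1.01 higher in experiment 2 than in experiment 1 on the log2 scale in xSGK1 embryos and 1.55 higher in controls. The variant h2ax.S was likewise higher in experiment 2, by 0.96 and 0.70 in that order of groups. In contrast h2ac17.L differed between experiments by -1.09 in xSGK1 and -0.85 in control embryos, and h1-10.S by -0.57 and -0.61. For h3-3b.L the difference was 0.09 in both groups. For the genes with the largest injection differences the experiment differences were -0.55 and -0.19 for h4c4.L, 0.35 and 0.36 for h2ac14.L, and 0.27 and -0.20 for the brighter h2ac7.L probe set, in xSGK1 and control embryos. Between experiments 2 of 7 replication-type and 2 of 4 variant probe sets had an adjusted p under 0.05 in the limma fit with injection in the model, where 40.8% of all probe sets did. The median experiment difference was 0.03 for replication-type and 0.07 for variant probe sets. Members of both classes thus lay on both sides of 0 in this comparison, and nothing is read from these counts. The variant h2ax.S was lower with xSGK1 morpholinos and higher in experiment 2, as were 14.5% of all probe sets, and h4c4.L and h2ac17.L were higher with xSGK1 morpholinos and lower in experiment 2, as were 18.6%.

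**Figure D4:**
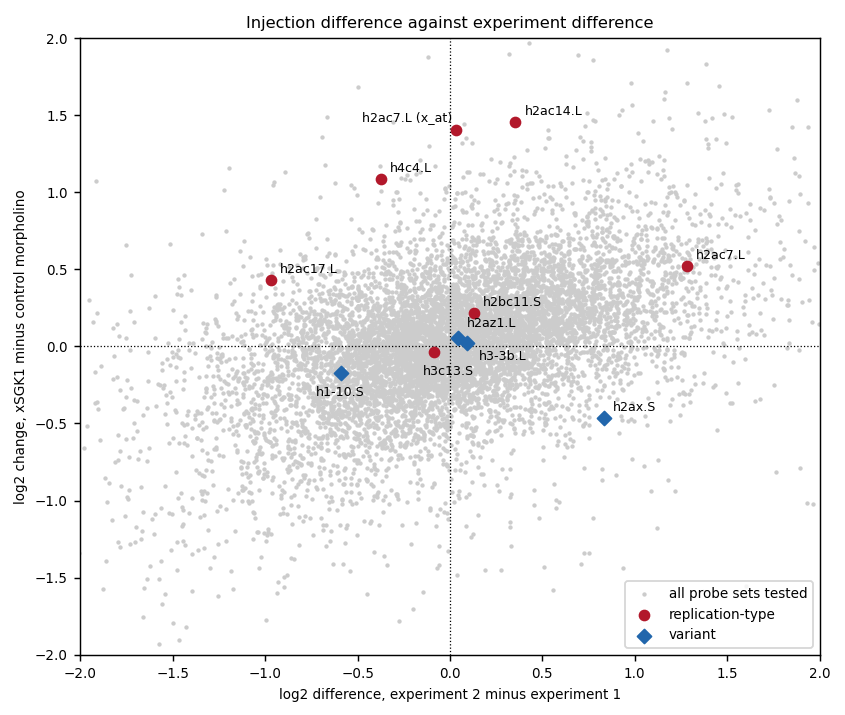
Log2 change between injections (xSGK1 minus control morpholino) against the log2 difference between experiments (experiment 2 minus experiment 1) for all probe sets tested (grey), replication-type members (circles) and variant members (diamonds); 121 grey probe sets lie outside the axis limit of 2. h4c4.L, h2ac14.L and the x_at probe set of h2ac7.L lie high and near the middle, while h2ac17.L, h2ax.S and the second h2ac7.L probe set lie to the sides.

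The array holds 27 histone probe sets, of which 13 more belong to 1 other histone gene each and 3 are shared by several genes. Of the other replication-type genes there was only 1, the H3 gene hist2h3c. Its 3 probe sets were higher in both xSGK1 arrays than in both controls, as were 16.3% of all probe sets tested. They belong to 1 gene, so nothing is read from their number. The brightest, an x_at probe set that represents the gene, gave 857 and 557 in xSGK1 embryos, against 397 and 471 in controls. Its log2 change was 0.66 ± 0.23 SE and it did not pass (limma adjusted p = 0.12 with the experiment as a block, 0.999 without). The other 2 gave 0.67 and 0.48 and did not pass either (limma adjusted p = 0.0694 and 0.15 with the block). This H3 gene had a larger log2 change than the member h3c13.S, a difference that was not tested.

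Of 7 other variant and maternal histone genes, 6 passed the signal filter. With the block 1 rose, 0 fell and 5 did not pass, and without it 0 passed (1 at an unadjusted p under 0.05). Over all probe sets 4.09% were called higher with the block, and 3.61% had an unadjusted p under 0.05 without it, so nothing about the list is read from 1 gene of 6. The one that rose is named h2afx on the array and h2ax.lS in RefSeq, by these names a further H2A.X gene. No sequence was compared, so its class rests on the names. Its brighter probe set, an x_at one, read 386 and 225 in the xSGK1 arrays, against 154 and 122 in the control arrays. It rose by a log2 change of 1.03 ± 0.20 SE (limma adjusted p = 0.035 with the block, 0.999 without). Over the settings tried with the block its adjusted p ran from 0.0118 to 0.0521, with the highest value under quantile normalization, where the call ended. The second probe set gave 232 and 179.6 in xSGK1 embryos, against 109 and 87.3 in controls, with a log2 change of 0.95 ± 0.18 SE. Its control mean of 98.2 was under the filter, so it entered the test (limma adjusted p = 0.036 with the block) only through its xSGK1 arrays, and that p is not counted as support. With no signal filter its adjusted p was 0.0521. The p of the brighter h2ax.lS probe set is not counted as support either, since the gene lists were chosen with earlier results of these data known. The 2 genes named as H2A.X thus pointed in opposite directions, higher for h2ax.lS and lower for h2ax.S. That difference was not tested.

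The remaining variants stayed near 0 or were lower, and did not pass. The maternal linker histone h1-8.S, which replaces somatic H1 in the Xenopus egg and early embryo, read 216 and 88.2 in xSGK1 embryos, against 356 and 100.5 in controls. It differed more by experiment (-1.42 on the log2 scale) than by injection (-0.42 ± 0.21 SE, limma adjusted p = 0.232 with the block). The H2A.Z genes h2az1.S and h2az2.S had log2 changes of 0.07 and 0.08. The H3.3 gene h3-3b.S gave -0.01. The brighter h3-5.L probe set gave -0.04 (limma adjusted p = 0.672 with the block). The other one was lower in both experiments, with 2599 and 1261 in xSGK1 embryos, against 2897 and 1623 in controls (log2 change -0.26 ± 0.12 SE, limma adjusted p = 0.213 with the block). The macroH2A gene macroh2a2.L had signals of 17.4 to 33.8 and did not reach the filter. The gene h2aj.L, which was in neither list, was dimmer still, with signals of 2.5 to 17.3.

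Positions were read as gene order from the RefSeq table of assembly Xenopus_laevis_v10.1, with 6 neighbours on each side. All 12 neighbours of h2ac7.L and 9 of the 12 of h2bc11.S bore only provisional LOC names. On chromosome 3S h2bc11.S and h2ax.lS lay 11 genes apart, 10 of them with LOC names and 1 a tRNA gene. A tRNA gene also stood next to h4c4.L, and h2ac14.L adjoined the H3 gene h3c8.S. The gene h3c13.S stood between gper1.S and unkl.S with no named histone gene among its 12 neighbours. Among the variants, h2ax.S adjoined a second H2A.X gene, h2ax.2.S, h2az1.L adjoined dnajb14.L, and h3-3b.L adjoined unk.L. For 3 of the 10 genes, h4c4.L, h2ac7.L and h2ac14.L, the suffix .L did not match their chromosome, which belongs to the S subgenome.

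Genes that make or process histone transcripts, and genes that carry or modify histones, were set beside the histones. In the list for transcript synthesis and processing 30 of 32 genes passed the signal filter. With the block 1 fell, 0 rose and 29 did not pass, and the median log2 change was 0.01. Since 3.91% of all probe sets were called lower, 1 of 30 is near the background and is no result about the list. The gene that fell was cpsf2.S, a subunit of the cleavage complex that cuts histone pre-mRNA and other pre-mRNAs. Its signal was 445 and 535 in xSGK1 embryos, against 748 and 988 in controls, with both xSGK1 arrays below both controls (log2 change -0.80 ± 0.15 SE, limma adjusted p = 0.0334 with the block, 0.999 without). Over the settings tried with the block the adjusted p ran from 0.00583 to 0.048. The cell cycle transcription factor gene e2f3.S gave 3020 and 3949 in xSGK1 embryos, against 2290 and 2993 in controls, and did not pass (log2 change 0.40, limma adjusted p = 0.0659 with the block). It passed under cyclic loess normalization (0.0209). The related e2f1.L (0.57), the cyclin E gene ccne1.L (0.40) and cstf2.L of polyadenylation (0.51) did not pass. The stem-loop binding protein genes slbp.L and slbp.S and npat.S, a coactivator of histone transcription, were looked up for their roles after their values were seen, and none passed. The brightest slbp.L probe set gave 5159 and 5370 in xSGK1 embryos, against 4946 and 5109 in controls (log2 change 0.07 ± 0.09 SE, limma adjusted p = 0.64 with the block). A second and dimmer slbp.L probe set gave 263 and 357, against 166 and 316 (log2 change 0.39 ± 0.19 SE, limma adjusted p = 0.222 with the block). The slbp.S probe set had a log2 change of -0.11 ± 0.12 SE. For npat.S both xSGK1 arrays, at 447 and 545, were below both controls, at 610.2 each (log2 change -0.30 ± 0.16 SE, limma adjusted p = 0.262 with the block).

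Of 28 histone chaperone genes, whose products carry histones to and from DNA, 25 passed the filter and 0 were called in the limma fits with or without the block. None had an unadjusted p under 0.05 without the block. Over all probe sets 8.0% were called with the block and 0% without it. Without the block 3.61% of all had an unadjusted p under 0.05. Nothing about the list is read from 0 of 25. Their median log2 change was 0.04, the same as that of all probe sets. The smallest p with the block belonged to yeats4.S (-0.54), set.S (-0.27), nasp.S (0.31), spty2d1.S (0.39) and vps72.S (-0.43), with limma adjusted p between 0.0849 and 0.192. NASP carries H3 and H4, and YEATS4 and VPS72 act with complexes that insert H2A.Z. The calls of yeats4.S and nasp.S depended on the normalization, since both passed under cyclic loess (0.0326 and 0.0391). That setting called 1561 of all 9251 probe sets, against 740 in the main fit with the block.

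Of 26 genes for enzymes that acetylate, deacetylate, methylate or phosphorylate histones or methylate DNA, 23 passed the filter and 0 were called with or without the block. Over all probe sets 8.0% were called with the block and 0% without it, so nothing about the list is read from 0 of 23. Cyclic loess with the block called 1561 of all 9251 probe sets. The median log2 change of the list was -0.02. The Polycomb gene suz12 gave 3263 and 4354 in xSGK1 embryos, against 1983 and 3421 in controls (log2 change 0.53, limma adjusted p = 0.0562 with the block). The mitotic H3 kinase gene aurkb.S gave 699 and 259, against 970.2 and 595 (log2 change -0.81, limma adjusted p = 0.0635 with the block). The H4 methyltransferase gene kmt5a.S gave -0.62, the H3 demethylase gene kdm1a.S -0.42 and the DNA methyltransferase gene dnmt1.L -0.48. A second and dimmer kdm1a.S probe set gave -0.08 (limma adjusted p = 0.769 with the block). Under cyclic loess suz12, aurkb.S and kmt5a.S passed (adjusted p = 0.00798, 0.0124 and 0.0252), suz12 also with an offset of 64, under quantile normalization and without cross-hybridising suffixes, and aurkb.S also with an offset of 64.

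Outside the histones, the genes whose 4-array profile was nearest to the mean replication-type profile were sought among 6158 probe sets with 1 gene. Nearness was the Euclidean distance of log2 values centred on each probe set's mean, over 4 arrays, where the median distance was 0.888. The nearest were bicc1.S, an RNA-binding protein gene (0.050), atp5if1.L, an inhibitor of ATP synthase (0.096), prkag1.L, a subunit of AMP-activated kinase (0.105), akirin2.S (0.119) and abhd17c.S (0.125). The signal of bicc1.S was 426 and 434 in xSGK1 embryos, against 239 and 261 in controls. These distances rest on 4 arrays and are a description. The 7 replication-type probe sets themselves lay 0.525 to 1.258 from their mean profile, farther than these 5 genes, so the mean describes none of them closely. The variants lay at 0.690 (h2az1.L), 0.713 (h3-3b.L), 1.109 (h1-10.S) and 1.440 (h2ax.S), so this distance did not separate the classes.

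Tissue markers also differed between the arrays. The summed signal of the 4 ectodermal markers was 6116 and 2719 in the xSGK1 arrays of experiments 1 and 2, against 9623 and 4959 in the control arrays. For the 4 mesodermal markers it was 14875 and 15109, against 11523 and 16029, and for the 3 endodermal ones 4311 and 3442, against 4657 and 5040. The 3 neural and organizer markers summed to 2737 and 1500, against 2242 and 2366. Every probe set of a marker enters these sums, and single markers differed from them. The mesodermal markers were mixed. In both experiments vegt.L was higher, with 7335 and 8343 in xSGK1 embryos, against 5354 and 7334 in controls. So was vegt.S, with 541 and 588, against 287 and 487. In contrast myf5.L was lower in both experiments, with 752 and 208, against 1001 and 515. For tbxt.S the values were 3314 and 2580, against 2752 and 4018. Those of wnt8a.L were 2933 and 3389, against 2129 and 3675, so both genes were lower in experiment 2 only. Among the endodermal markers gata6.L was lower in both experiments, with 2410 and 1775, against 2931 and 3006. So were sox17a.L and sox17a.S, while the dim gata6.S stayed at 63.1 to 67. In experiment 1 gata4 was higher, where gata4.L gave 542 and 501, against 383 and 704. For gata4.S the values were 225 and 101, against 141 and 101. The lower ectodermal sum came largely from the keratin gene krt12.4, whose L and S probe sets both enter it. In xSGK1 embryos krt12.4.L gave 1402 and 75.4, against 3922 and 974 in controls, and krt12.4.S 713 and 59.5, against 2173 and 541. The other ectodermal markers were mixed. Higher in experiment 1 only was tfap2a.L, with 1682 and 1018, against 980.0 and 1357. Higher in experiment 2 only was foxi1.L, with 588 and 542, against 669 and 190.3. Lower in both was grhl1.L, with 1731 and 1024, against 1879 and 1897. The part of these differences in the histone signals was not tested. The histone probe sets can also bind transcripts of near-identical histone genes, so a signal may combine several gene copies.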

How the data were processed

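For every probe set of the Affymetrix Xenopus laevis array the authors deposited a linear intensity. The submitters' processing notes name MAS5 and GCOS. The deposited values were scaled per array. The 2% trimmed mean was 500.06 in the control array of experiment 1 and 500.05 in the others, and it was set to 500 exactly. Detection calls were not used here. Values were taken as log2(signal + 16). Tests used the 9251 of 15611 probe sets that were no array controls (120) and averaged at least 100. The platform annotation gave 1 gene symbol to 9304 probe sets, several to 195 and none to 6112. Symbols were updated by gene identifier (9227 matched), which changed 2.

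Tests were run in R 4.3.3 with limma 3.58.1 (intensity trend, two-sided, Benjamini-Hochberg over 9251 probe sets, threshold 0.05). The fit without a block was the first design. A second fit took the experiment as a block and is given beside it, because the series text describes 2 experiments that each held both injections. Across probe sets, the difference between the 2 experiments in xSGK1 embryos correlated with that in controls (Pearson 0.838). The unblocked spread includes this difference. Nothing says that the arrays of a group came from separate clutches beyond the 2 experiments, so p-values measure no spread beyond these arrays. With so few arrays limma moves the variance of each probe set towards that of all probe sets of like signal. The SE and p of a gene are therefore not its own replicate spread alone. For single values no permutation test is given, since with 2 arrays a group the smallest exact two-sided p is 0.333.

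The members and the gene lists were chosen with earlier results of these data known. A gene in a list was represented by its brightest probe set. Named genes were all members, up to 5 per list with the smallest p of the blocked fit, and the 5 nearest profiles. Outside this rule, the remaining histone genes on the array, slbp.L, slbp.S, npat.S, sgk1.L and single tissue markers were named after their values were seen. LOC genes were not searched for histones, since no descriptions were used. The limma script was tested on simulated data. Alternatives were other offsets, filters, normalizations and variance models, the block, probe sets without cross-hybridising suffixes, and each array left out. Figures were drawn with matplotlib 3.10.9.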

Additional observations from a re-analysis of the deposited data

Results flagged for a closer look

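A histone signal outside the comparisons was higher in xSGK1 embryos. The probe set shared by the H2A genes h2ac1.S and h2ac17.L was left out of the member set because it has 2 genes. It read 2197 and 2195 in the xSGK1 arrays of experiments 1 and 2, against 1401 and 1105 in the control arrays, a mean 1.75 times as high. Its signal in each xSGK1 array exceeded that in each control array, which held for 16.3% of all probe sets tested. Its log2 changes within the experiments were 0.64 and 0.98, while the probe set of h2ac17.L alone gave 0.55 and 0.31. The other 2 shared histone probe sets, of h3c13.S with h3-5.L and of h2az1.S with h2az1.L, had log2 changes of -0.08 and 0.12.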

How the results depend on the processing

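The fit without a block called 0 probe sets under the other offsets, filters, normalizations and variance model, 0 to 110 with 1 array left out and 740 with the experiment as a replicate block. With the block the count was 1136 at an offset of 64, 490 with a signal filter of 300 and 1561 under cyclic loess normalization. With 1 array left out the median log2 change ran from 0.81 to 0.99 for replication-type members, against 0.52 with all arrays, from -0.03 to 0.04 for variants, and from 0.77 to 1.02 for the gap between them, against 0.60. Under cyclic loess the variant median was -0.03. Over the settings other than leaving out an array, h4c4.L stayed between 1.05 and 1.10, h2ac14.L between 1.15 and 1.60, the brighter h2ac7.L probe set between 1.33 and 1.43 and h2ax.S between -0.47 and -0.39. With 1 array left out h2ac17.L ran from -0.11 to 0.97, the dimmer h2ac7.L probe set from -0.26 to 1.30 and h1-10.S from -0.48 to 0.14. The replicate block called 1 gene in the other variant list and 1 in the transcript processing list, and changed no count of the other 3 lists. With the block, h3-5.L was 0.08 under cyclic loess, on the other side of 0, and h2ax.lS lost its call under quantile normalization. A signal filter of 300 left the representative probe set of h2ax.lS untested. Leaving out an array was not run for the blocked and experiment fits, which would have no residual degrees of freedom. Without cross-hybridising suffixes there was no value for probe sets that have one, among them the representatives of hist2h3c and h2ax.lS. With 1 array left out the unpaired values also hold part of the difference between experiments, which follows from the design. The cause of the other shifts was not tested. The lowest member signals were those of the dimmer h2ac7.L probe set, 50.5 and 179 in controls, and of h2ac14.L, 83.3 and 111 in controls, beside the filter of 100 on the mean of the 4 arrays.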
